A study of Mus musculus with 15 samples.

Results

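The genes described here are 10 inhibitors and targets of the extracellular signal-regulated kinases (ERK): the dual-specificity phosphatases Dusp1, Dusp4, Dusp5 and Dusp6, the Sprouty genes Spry1, Spry2 and Spry4, the Sprouty-related genes Spred1 and Spred2, and the transcription factor Etv5. Members were the probes that carry 1 of these symbols in the table of log2 values the authors deposited. This gave 9 probes for 8 genes, among 20855 gene probes that carry 15059 different symbols. The symbols of that table name no probe for Dusp5 or Spry4, and 1 array probe for each was found through its accession and is reported apart.

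RNA was measured in cumulus cells, the follicle cells that enclose the mammalian oocyte, from B6CBAF1/J mice at 3 stages with 5 arrays each. NC1 cells came from 3-week-old prepubertal mice, in unexpanded complexes with a prophase I oocyte that the labels call developmentally incompetent and the study incompetent or poorly competent. C1 cells came from 8-week-old adults, in unexpanded complexes with a competent prophase I oocyte. C2 cells came from 8-week-old adults after superovulation, in expanded complexes collected from the oviduct with a metaphase II oocyte. NC1 and C1 cells were detached by pipetting and C2 cells with hyaluronidase. Each sample was a pool of several mice. The stage therefore cannot be told apart from age between NC1 and C1, nor from hormone treatment, site and enzyme between C1 and C2. In these bulk samples fewer cells of a type and less RNA per cell cannot be told apart either.

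The ERK cascade runs from a receptor tyrosine kinase through Grb2, Sos and Ras to the kinases Raf, MEK and ERK. It is limited by genes that ERK itself switches on. The Dusp proteins take the phosphates off activated MAP kinases, with Dusp6 acting on ERK in the cytoplasm, Dusp5 on ERK in the nucleus, and Dusp1 and Dusp4 on several MAP kinases in the nucleus. Sprouty proteins restrain signalling between receptor and Raf, and Spred proteins bring neurofibromin to the membrane, where it turns Ras off. Etv5 is an ETS-family transcription factor commonly read as a target of receptor tyrosine kinase signalling. In the preovulatory follicle, luteinizing hormone acts through EGF-like ligands and ERK activity in granulosa and cumulus cells, which expansion of the cumulus requires.

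Promoter sequence is shown for members with the contrasting profiles described further on. These are Dusp6, higher at C2, Spry1, lower at C2, and Dusp1, higher at C1. The Dusp1 call at C1 was narrow and was lost under 18 of 33 alternative settings. Each line gives the 250 bases before the RefSeq start on build GRCm38.p6, 5' to 3' on the strand of the gene, at chr17:26508473-26508722 on the minus strand for Dusp1, chr10:99262981-99263230 on the plus strand for Dusp6 and chr3:37639697-37639946 on the plus strand for Spry1. Capitals mark a match to the cyclic AMP response element TGACGTCA, to the ETS site CCGGAA, to the AP-1 site TGANTCA or to the CArG box of serum response factor, searched on both strands.
Dusp1: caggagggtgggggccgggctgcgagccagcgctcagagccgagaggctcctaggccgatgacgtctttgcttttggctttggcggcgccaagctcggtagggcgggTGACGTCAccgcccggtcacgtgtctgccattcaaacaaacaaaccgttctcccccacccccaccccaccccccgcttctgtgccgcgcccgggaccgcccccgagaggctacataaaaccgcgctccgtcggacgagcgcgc
Dusp6: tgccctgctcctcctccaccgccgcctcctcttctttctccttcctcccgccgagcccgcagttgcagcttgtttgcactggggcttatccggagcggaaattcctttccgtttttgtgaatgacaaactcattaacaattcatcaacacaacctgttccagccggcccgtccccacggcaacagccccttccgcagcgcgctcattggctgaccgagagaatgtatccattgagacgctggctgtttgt
Spry1: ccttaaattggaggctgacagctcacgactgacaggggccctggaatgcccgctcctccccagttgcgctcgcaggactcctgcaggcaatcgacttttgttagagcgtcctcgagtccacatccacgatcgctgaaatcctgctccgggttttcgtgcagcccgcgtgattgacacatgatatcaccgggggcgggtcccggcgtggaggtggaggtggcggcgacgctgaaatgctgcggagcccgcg

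RefSeq promoters were at hand for 8 of the 10 genes, 9 promoters in all because Etv5 has more than 1 start. The full cyclic AMP response element occurred in the Dusp1 promoter, 143 bases before the start, and in none of the other members' windows. It is present in 1.55% of all 32841 promoters of this length. The Dusp5 promoter held 2 CArG boxes, a motif found in 1.47% of all promoters. No member's window held the ETS site, found in 12% of promoters, or the AP-1 site, found in 6.75%. These matches describe letters in a window and not bound sites.

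Levels are given as log2 of the background-subtracted intensity minus the median of the same array over valid probes, so that 0 is the typical measured gene and a difference of 1 is a doubling. Probes were called valid when the scanner software placed them well above background on 4 or 5 of the arrays in every stage, which held for 17323. Levels of different probes depend on the probe and are not compared. Of the 8 genes, 4 had valid probes, namely Dusp1, Dusp6, Etv5 and Spred1, the last with 2 probes. All 5 probes differed over the 3 stages in the moderated F-test of limma at an adjusted p of 0.01, the threshold used throughout, as did 51.6% of all valid probes.

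Dusp6 was the member with the largest rise among the valid probes. Its level was 0.85, 1.06, 0.99, 1.33 and 0.99 in NC1 replicates 1 to 5, a mean of 1.04 ± 0.18 (SD, n = 5). It was 1.95, 0.65, 1.55, 1.79 and 1.18 at C1 (1.43 ± 0.52) and 4.78, 4.61, 4.28, 4.28 and 4.79 at C2 (4.55 ± 0.26). The C2 arrays lay far above all others, while NC1 and C1 arrays overlapped and C1 spread the most. From C1 to C2 the difference was 3.12 (SE 0.20), or 8.70-fold, with an adjusted p of 2.04e-09. Only 0.502% of valid probes showed a greater rise. Against NC1 the C2 level was 11.4-fold higher (adjusted p = 3.47e-10). C1 exceeded NC1 by 0.38 with a 95% confidence interval from -0.05 to 0.82, which did not pass the test (adjusted p = 0.367).

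Etv5 followed the same order of stages. NC1 arrays read -0.76, -0.83, -0.96, -0.89 and -1.0 (-0.89 ± 0.10, SD, n = 5), and C1 arrays read -0.80, -1.61, -1.21, -0.41 and -0.79 (-0.97 ± 0.46). C2 arrays read 1.35, 1.54, 1.5, 1.49 and 1.56 (1.49 ± 0.08). All C2 values lay above all prophase I values, and the C2 arrays differed little among themselves. The rise from C1 to C2 was 2.45 (SE 0.17), or 5.48-fold (adjusted p = 3.10e-09). NC1 and C1 differed by -0.08, with an interval from -0.43 to 0.27.

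Spred1, the Ras inhibitor, rose less. The probe that stands for the gene (the one with the highest mean, A_55_P2079430) read -0.28, -0.22, 0.02, -0.13 and -0.35 at NC1 and -0.36, -0.87, -0.65, -0.02 and -0.07 at C1. At C2 it read 1.06, 1.11, 1.06, 0.54 and 1.04. Every C2 array exceeded every prophase I array, and NC1 and C1 overlapped. The difference between C2 and C1 was 1.35 (SE 0.16), or 2.56-fold (adjusted p = 1.96e-06). The second probe, A_55_P2079425, gave 1.03, or 2.05-fold (adjusted p = 1.46e-05), with no overlap between C2 and C1 either. C1 minus NC1 was -0.20 for the first probe and 0.04 for the second, and neither passed the test.

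**Figure D1:**
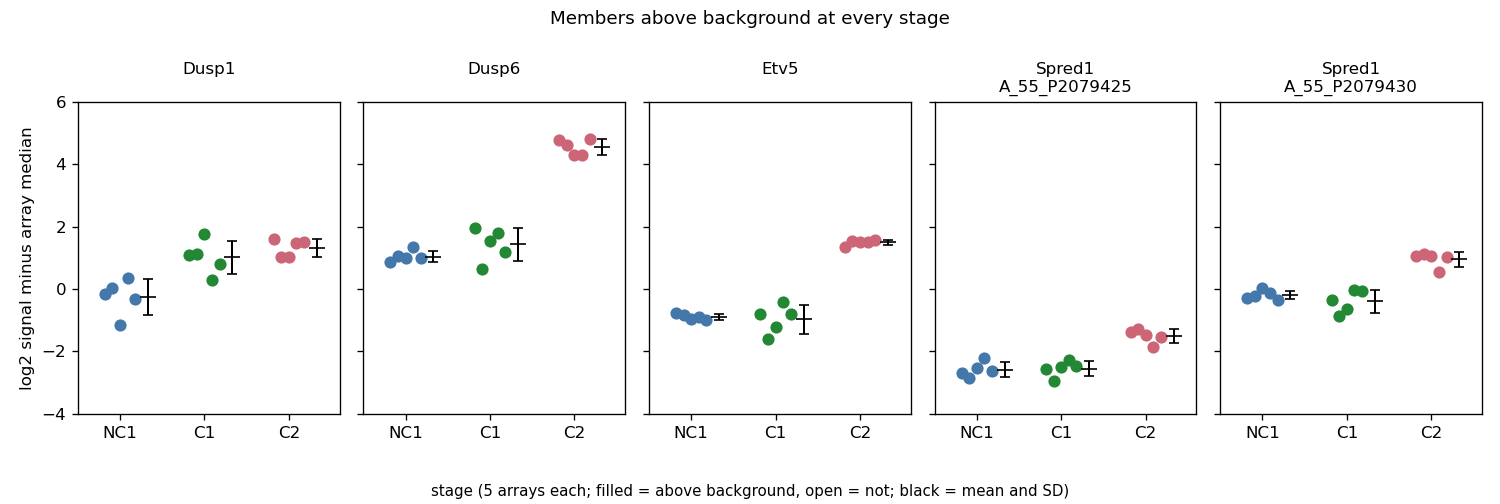
Log2 signal minus the array median (vertical axis) of the 5 probes above background at every stage, by stage on the horizontal axis. Each point is 1 array, in order of replicate, and the black bar is the mean with its SD (n = 5). Dusp6, Etv5 and both Spred1 probes are higher in every C2 array than in any other, whereas Dusp1 is already raised in most C1 arrays.

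Dusp1, the phosphatase of the immediate early response, had another profile. NC1 arrays read -0.17, 0.03, -1.16, 0.36 and -0.33, a mean of -0.26 ± 0.57 (SD, n = 5). C1 arrays read 1.08, 1.11, 1.75, 0.30 and 0.80 (1.01 ± 0.53), and C2 arrays 1.59, 1.03, 1.02, 1.47 and 1.51 (1.32 ± 0.28). C1 replicate 4 lay below NC1 replicate 4, so the prophase I stages overlapped, whereas all C2 arrays lay above all NC1 arrays. C1 exceeded NC1 by 1.26 (SE 0.27), or 2.40-fold, and passed the test narrowly (adjusted p = 0.00951). Dusp1 was thus 1 of 4 valid member genes called higher at C1, where 1.75% of valid probes were called higher and 0.768% lower. C2 minus C1 was 0.32, with an interval from -0.25 to 0.89 (adjusted p = 0.331), and C2 was 2.99-fold above NC1 (adjusted p = 7.77e-05).

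The call for Dusp1 between C1 and NC1 rested on the choice of settings. It was lost under 18 of 33 alternatives, with adjusted p values up to 0.0400, and leaving out any 1 of 13 arrays, all but NC1 replicate 4 and C1 replicate 4, ended it. The difference kept its sign in all of them, from 1.04 to 1.44, and was positive within each of the 4 slides, from 0.77 to 1.73. Red blood cell markers moved between the same stages, with a summed level of 67.3 to 389 at NC1 and 9.91 to 41.3 at C1. In that sum each of 5 measured globin and other erythroid genes is expressed relative to its array's median, and the part of these cells in the Dusp1 result was not tested.

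Between C1 and C2, 3 of the 4 valid member genes (Dusp6, Etv5 and Spred1) were called higher and none lower. The same call was made for 25.4% of valid probes, and 22.2% were called lower. Each of the 3 also had C2 and C1 arrays that did not overlap, as did 24.1% of valid probes in that direction. Compared with NC1 all 4 were called higher at C2 and had arrays that did not overlap. Of all valid probes 26.5% were called higher and 24.9% lower in that comparison, and 25.6% were higher with no overlap. The comparisons share arrays, C1 for the successive steps and C2 for those that end there, and are not independent. The share of all calls that were higher at C2 than at C1 was 53.3%, and 74.7% when arrays were scaled on the median of all gene probes or when the table of the authors was used. These scalings moved the median of valid probes from 0.02 to 0.33 for C2 minus C1, and Dusp6, Etv5 and Spred1 stayed above that shift in each.

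**Figure D2:**
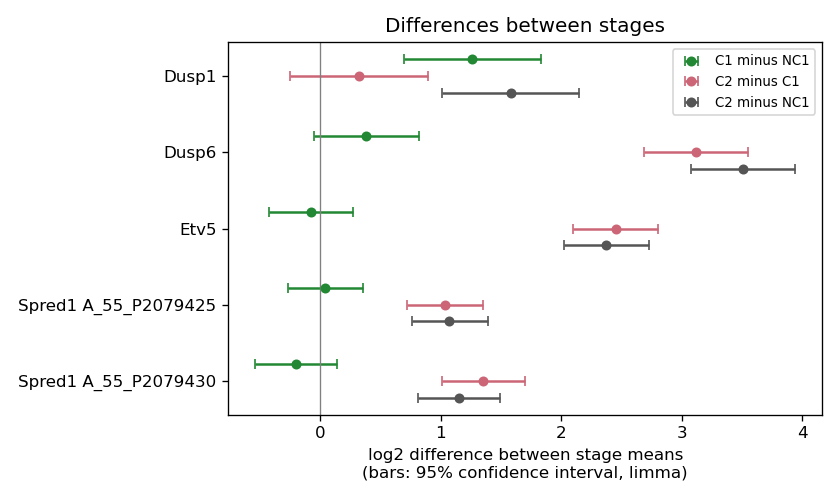
Log2 difference between stage means (horizontal axis) for the 5 probes above background at every stage, with the 95% confidence interval from limma. C2 minus C1 runs from 0.32 for Dusp1 to 3.12 for Dusp6, and C1 minus NC1 is 1.26 for Dusp1 and between -0.20 and 0.38 for the other probes.

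C1 replicate 2 was the lowest C1 array for Dusp6, Etv5 and both Spred1 probes, and C1 replicate 4 the lowest for Dusp1. With 1 array left out at a time, C2 minus C1 ranged from 2.93 to 3.25 for Dusp6, from 2.29 to 2.59 for Etv5 and from 1.24 to 1.46 for the representative probe of Spred1. The arrays came from 4 slides that each held all stages. Within single slides, C2 minus C1 lay between 2.65 and 3.49 for Dusp6, between 1.92 and 2.76 for Etv5, and between 0.84 and 1.71 for the same Spred1 probe.

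Dusp4, Spred2, Spry1 and Spry2 were near or below background at 1 stage or more, and for these a level below background is only a bound. They were fitted over all 39429 gene probes with no filter, in which 11.1% were called higher and 11.8% lower at C2 than at C1, and 12.3% higher and 13.0% lower at C2 than at NC1. Dusp4, Spred2 and Spry2 reached 4 of 5 arrays above background at C2 alone, and Spry1 at NC1 and C1 alone. The deposited table that chose the members held 20855 gene probes, and 20844 reached 4 of 5 arrays in any 1 stage. A member could thus enter through the stage where it is high, which partly set the direction of a call in advance. The shares over all gene probes do not correct for this. Arrays differed in sensitivity here. The lowest signal counted as above background was -3.71 in C1 replicate 3 and -6.55 in C1 replicate 4, and the number of gene probes above background was 18366 in the array with the fewest, C2 replicate 3, and 24493 in C1 replicate 4. A signal could also exceed that lowest value and not be counted. Dusp5 read -4.65 in C2 replicate 2, not above background, where the lowest counted signal was -4.95. The bounds given below as "at least" use that lowest value and are therefore approximate.

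Dusp4 was above background in all 5 C2 arrays, where it read -1.88, -1.82, -1.89, -1.34 and -1.04. It was above background in only 1 NC1 and 1 C1 array, both replicate 4, at -3.97 and -4.47, and the signals of the other prophase I arrays lay between -6.12 and -4.86. No prophase I signal came near those of C2. C2 minus C1 was 3.85 (SE 0.33, adjusted p = 4.12e-07) and C2 minus NC1 was 3.23 (adjusted p = 1.70e-06), both between measured signals of which most were not above background. With C1 replicate 4 left out, C2 was at least 6.82-fold higher than C1, and with NC1 replicate 4 left out at least 9.19-fold higher than NC1 (2.77 and 3.20 on the log2 scale). Both bounds leave out the array with the highest signal of its stage, and they hold for the main scaling only. With the background corrected by normexp, which adds an offset of 50 to each signal, C2 minus C1 was 2.16 and C2 minus NC1 was 2.08, both still called. C1 minus NC1 was -0.62, with an interval from -1.32 to 0.08.

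Spred2, the relative of Spred1, was likewise above background in all C2 arrays, at -3.62, -3.16, -3.17, -3.10 and -2.87. It was not above background in any NC1 array, and at C1 in replicate 4 alone, at -4.87. All C2 signals lay above all prophase I signals. C2 was at least 2.91-fold higher than NC1, and at least 2.27-fold higher than C1 with C1 replicate 4 left out. C2 minus C1 was 2.43 (SE 0.24, adjusted p = 2.17e-06). With normexp the difference from C1 fell to 0.86 and the bound over NC1 to 1.74-fold, and the call was kept.

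Spry1 moved the other way. This inhibitor of receptor tyrosine kinase signalling was above background in all prophase I arrays, at -2.73, -2.86, -3.44, -3.82 and -3.99 at NC1 and -2.76, -3.14, -3.41, -3.29 and -2.85 at C1. At C2 it was above background in none, with signals of -7.10, -7.06, -6.36, -7.09 and -6.65. NC1 and C1 overlapped, and C2 lay below both. Spry1 was at least 3.25-fold lower at C2 than at C1 and at least 2.68-fold lower than at NC1, or 2.41-fold and 2.15-fold with normexp. The measured signals differed by -3.76 between C2 and C1 (adjusted p = 4.47e-08), or by -1.50 with normexp. Since no C2 signal was above background, the size of the fall is known only as the bound.

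Spry2 was above background in 3 NC1, 3 C1 and 5 C2 arrays. Its C1 signals spread from -6.37 to -3.5 and overlapped those of NC1, from -5.10 to -3.93, and of C2, from -4.15 to -3.30. C2 minus C1 was 1.28, with an interval from 0.22 to 2.33, and did not pass the test (adjusted p = 0.0682). It passed under 4 of 31 alternatives, which were scaling on the median of all gene probes, quantile normalization, the table of the authors, and array weights. Dusp5 was above background in 1 C1 and 1 C2 array and Spry4 in none, so that for neither was a difference detectable at this signal.

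**Figure D3:**
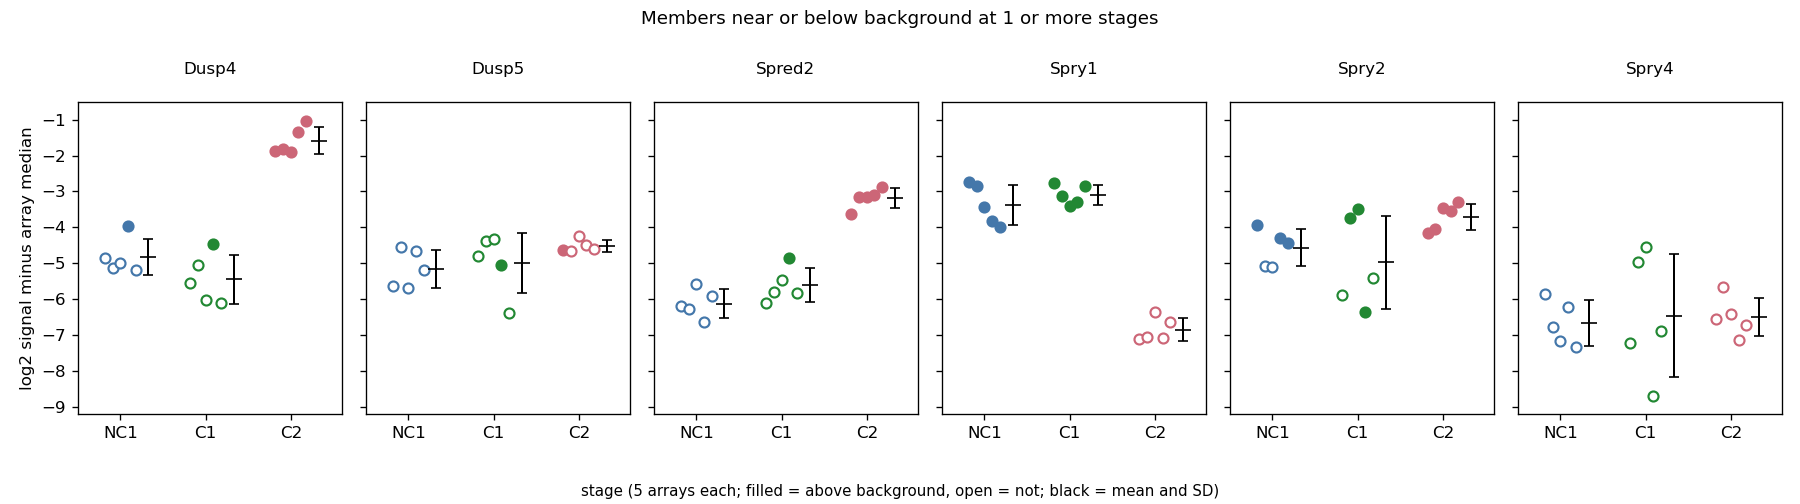
Log2 signal minus the array median (vertical axis) of 6 member probes near or below background at 1 stage or more. Filled points are arrays with the probe above background, open points arrays without, and black bars give the mean and SD of all 5 signals. Dusp4 and Spred2 are filled in every C2 array and Spry1 in every prophase I array, with the C2 signals of Spry1 all open and below -6.

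Markers of several cell types, the sampled cumulus cells among them, also moved between C1 and C2. The summed level of 7 theca and stroma markers was 12.9 to 58.2 at NC1, 11.5 to 17.8 at C1 and 0.518 to 0.766 at C2, with Pdgfra above background in no C2 array. The 8 granulosa and cumulus markers, among them Foxl2 and Amhr2, were above background in all arrays, and their sum was 202 to 263, 213 to 255 and 41.9 to 54.2. Between C1 and C2, 7 of these 8 were called lower. Foxl2 was not by its representative probe (0.03, adjusted p = 0.908), though its 2 valid probes differed in call. The theca and granulosa sums were both lower in every C2 array than in any other, in the same step as the fall of Spry1. For 7 oviduct epithelium markers the sum was 6.23 to 7.81, 7.16 to 11.8 and 24.9 to 30.2, where between C1 and C2 Krt8 and Krt18 were called higher and Epcam and Tppp3 lower, and Pax8 was above background in no array. Ovgp1, the oviduct glycoprotein, was 2.28 higher at C2 than at C1, which did not pass the test (adjusted p = 0.0343), and 3.32 higher than at NC1, which did (adjusted p = 0.00347). The oviduct sum was higher in every C2 array than in any other, in the same step as the rise of Dusp6, Etv5, Spred1, Dusp4 and Spred2. That sum rested mostly on Krt18 and Krt8, with mean log2 levels of 3.85 and 3.28 at C2. Ovgp1 read 1.52 there, Tppp3 -2.44 and Epcam -3.41, so the sum does not stand for the list as a whole. Oocyte markers summed to 12.8 to 51.1, 13.1 to 41.0 and 0.730 to 17.4, leukocyte markers to 3.05 to 6.01, 3.79 to 4.99 and 3.77 to 5.40, and endothelial markers to 0.657 to 0.899, 0.775 to 1.03 and 0.966 to 1.71. Whether the mix of cells had a part in the members' differences was not tested.

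**Figure D4:**
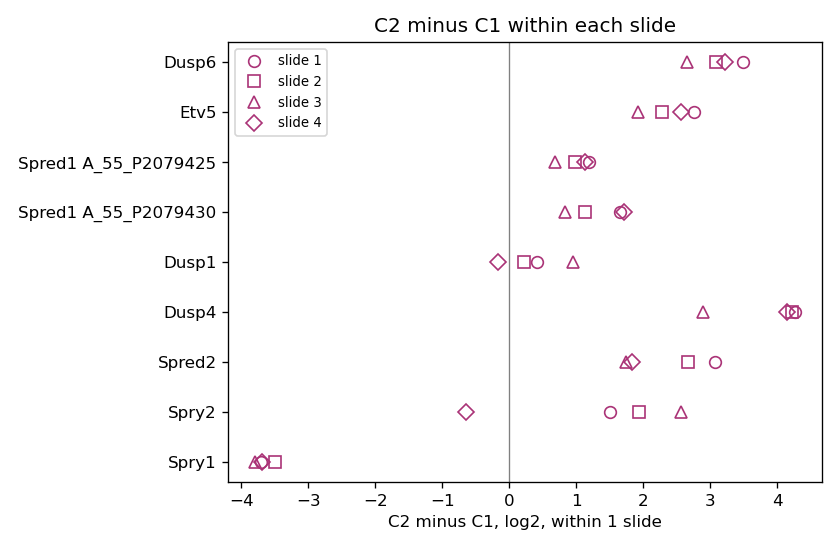
C2 minus C1 on the log2 scale within each of the 4 slides (horizontal axis), 1 symbol per slide, for 8 member genes. Each symbol compares the mean of 1 or 2 arrays a stage, Dusp6, Etv5, Spred1, Dusp4 and Spred2 lie to the right of 0 in every slide, Spry1 lies to the left of 0 in every slide, at signals that were below background at C2 and so give no size, and Dusp1 and Spry2 lie on both sides of 0.

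The rest of the pathway was followed with 4 lists that hold 60 genes, of which 47 had a valid probe. Between NC1 and C1 none of the 47 passed in limma, where only 1.75% of all valid probes were called higher and 0.768% lower. An unadjusted p under 0.05 was found for 9, with no share over all valid probes to set beside it. Between C1 and C2, 23 were called higher and 8 lower, where 25.4% and 22.2% of all valid probes were, and their median difference was 0.37 against 0.02 over all valid probes. With scaling on the median of all gene probes, and in the table of the authors, 25 were called higher and 6 lower, so that 80.6% of the list calls were higher against 74.7% of all calls. When a change of at least 2-fold was also required, 18 of the 31 calls were left. The same count was not made over all valid probes, so it has no share to be set against.

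Among 7 other valid MAP kinase phosphatases, 3 were called higher and 1 lower at C2 than at C1, against 25.4% and 22.2% of all valid probes. Those called higher were the JNK and p38 phosphatases Dusp10 (0.89) and Dusp16 (1.04), and Dusp3 (0.72). The ERK phosphatase Dusp9 was called lower (-0.90), though not with scaling on the median of all gene probes or in the table of the authors (adjusted p up to 0.0554). The median of the list was -0.54.

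The list of other feedback inhibitors was broad and also held Ras GTPase activators and Pea15a. Of its 7 valid genes, 4 were called higher and 1 lower, against 25.4% and 22.2% of all valid probes. Errfi1, which binds and inhibits the EGF receptor, rose by 2.02 (SE 0.36), the receptor inhibitor Lrig1 by 1.42, Pea15a, which holds ERK in the cytoplasm, by 1.21, and the Ras GTPase activator Rasa2 by 0.56. Il17rd, also known as Sef, fell by 1.56 (SE 0.14, adjusted p = 6.69e-08). The call for Rasa2 was lost under 4 of 33 alternatives, among them leaving out C2 replicate 5 (adjusted p up to 0.0130). The median of the list was 0.56. Spry3 and Spred3, the remaining members of the Sprouty and Spred families on the arrays, were above background in no array.

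In the cascade itself, 10 of 24 valid genes were called higher and 5 lower, against 25.4% and 22.2% of all valid probes, with a median of 0.25. The share that was lower is near that of all probes. The 5 that were lower encode the receptors Egfr (-1.06), Erbb2 (-1.92), Fgfr2 (-1.32), Kit (-1.05) and Igf1r (-0.42). For Egfr only 1 of 3 valid probes had this call, and that of Igf1r was lost under 12 of 33 alternatives, among them leaving out C1 replicate 2 or 4 or C2 replicate 1, 4 or 5 (adjusted p up to 0.671). Fgfr1, the remaining receptor of the list with a valid probe, was not called (0.18, adjusted p = 0.313). Its 3 valid probes did not all share that result. Among the genes that were higher were the adaptors Grb2 (1.05) and Shc1 (0.95), the exchange factor Sos2 (1.02), the Ras gene Nras (0.62), the MEK genes Map2k1 (0.81) and Map2k2 (0.57), the ERK gene Mapk3 (0.79), and the ERK-activated kinase Rps6ka1 (1.15).

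Of 9 other valid transcriptional targets of ERK, 6 were called higher and 1 lower, against 25.4% and 22.2% of all valid probes, with a median of 0.93. The immediate early gene Ier3 rose by 4.26 (SE 0.19, adjusted p = 2.93e-11), the ETS repressor Etv6 by 3.06 (SE 0.13), and the ephrin receptor Epha2 by 1.68. Hmga2 (1.55), Myc (0.93) and Etv1 (0.55), an ETS factor of the same subfamily as Etv5, were also called higher, Etv1 not under 9 of 33 alternatives, among them leaving out C1 replicate 1 or 4 or C2 replicate 2, 4 or 5 (adjusted p up to 0.0564). Epha4 fell by 1.91 (SE 0.31). Etv4, the third gene of that subfamily, was above background in no NC1, 3 C1 and 5 C2 arrays.

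**Figure D5:**
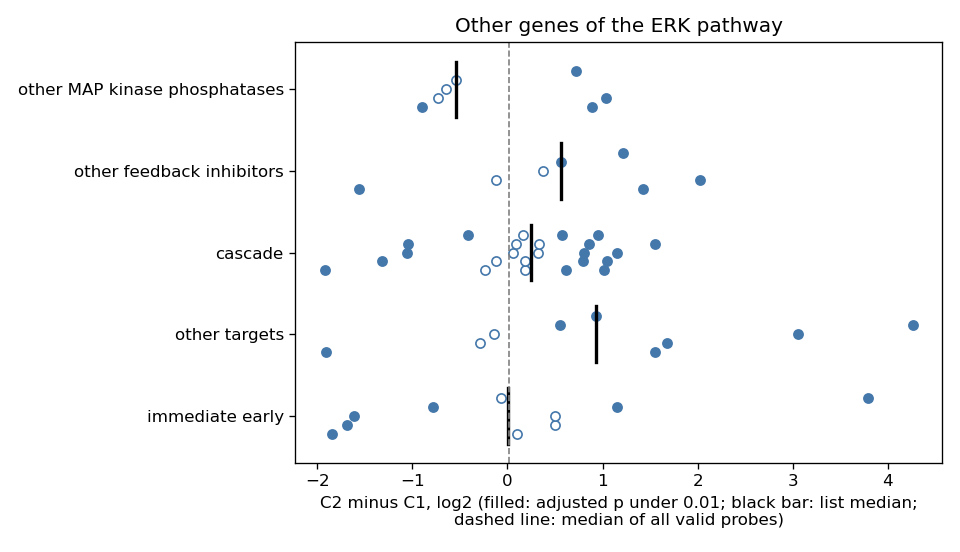
C2 minus C1 on the log2 scale (horizontal axis) for the genes of 4 ERK pathway lists and of the immediate early list with a valid probe, 1 point per gene. Filled points passed an adjusted p of 0.01, black bars are list medians and the dashed line is the median of all valid probes at 0.02. The list medians are -0.54 for phosphatases, 0.56 for feedback inhibitors, 0.25 for the cascade, 0.93 for targets and 0.01 for immediate early genes.

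The genes whose profile was most like that of Dusp6 over the 15 arrays were Etv6, Bcl3, Mis18a, Capg and Rusc1. Likeness was the root mean square difference after centring each probe on its own mean, which was 0.29 for Etv6 and Bcl3, 0.30 for Mis18a and Capg, and 0.32 for Rusc1 on the log2 scale. Their levels rose from C1 to C2 by 3.06, 3.14, 2.90, 2.97 and 2.95 in that order, against 3.12 for Dusp6. No valid member was lower at C2 than at C1, so no such neighbours were sought for a fall.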

How the data were processed

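Cumulus cell RNA of 3 stages (5 arrays each) was labelled with Cy3 and hybridized to 1-colour Agilent arrays. The authors deposited scanner output with the background-subtracted intensity of each spot (Feature Extraction 10.7.1.1 per the file headers, 10.5.1.1 per the submitters' processing notes), not scaled between arrays. A second deposited file holds log2 values, each of which equals the log2 intensity plus 1 constant per array and was used to choose the members and as an alternative. Control and outlier spots were left out, spots of a probe were averaged, log2 was taken and each array's median over 17323 valid probes was subtracted. The definition of valid probes and the threshold were taken from the study's methods, which also scale on an array median. The deposited log2 table gave shifts like those of a median over all gene probes, so the scaling on valid probes is not that of the authors. No gene probe was saturated, and 20 values among valid probes were missing. Depth has no counterpart on arrays, and the number of arrays limits the precision.

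Probes were named through accessions in the RefSeq table (GRCm38.p6, 26055 probes), a further 2770 by the authors' table only, and 10604 stayed unnamed. Stages were compared with limma 3.58.1 in R 4.3.3, with 1 model over 15 arrays, two-sided tests and the Benjamini-Hochberg adjustment over all probes at 0.01. The probe with the highest mean stood for a gene. For a bound, the bright stage's mean was set against a floor averaged over the dim arrays, in each the higher of the array's lowest signal above background and the probe's own. Some signals over that lowest value were not counted as above background, so the bounds are approximate. Normexp (offset 50) used the median spot signal, since the mean was not in the files used here. The fit was tested on simulated data. Nothing says that the pools of a stage came from separate collections, so p-values measure the spread between these samples.

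Named genes are the 10 members, the genes of 4 ERK pathway lists and an immediate early list that were called from NC1 to C1 or from C1 to C2, the 5 genes most like Dusp6 and 7 cell type marker lists. Spry3, Spred3 and Etv4, as family members, were named outside this rule after their values were seen. So were Fgfr1, as the valid receptor not called, and Egr1, Ier2, Junb and Nr4a1, as the immediate early genes not called. The members and lists were chosen with earlier results of these data known. Some genes of these lists are not reported here by name.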

Additional observations from a re-analysis of the deposited data

Results flagged for a closer look

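In 33 groups of 5 arrays (11 member probes at 3 stages), 2 held an array far from the others, where chance alone gives about 1 in 20. Dusp4 read -3.97 in NC1 replicate 4, against -5.18 to -4.86 in the other NC1 arrays, and this was the NC1 array in which its probe was above background. The gap was 0.737 of the range of the group, past the critical value of Dixon for 5 arrays. The Spred1 probe A_55_P2079430 read 0.54 in C2 replicate 4, against 1.04 to 1.11 in the other C2 arrays, a gap of 0.867 of the range. In that array it still lay above every prophase I array, of which the highest read 0.02.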

How the results depend on the processing

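A total of 33 alternatives were run. The number of valid member genes called was 3 for C2 against C1 and 4 for C2 against NC1 in all of them, and no member reversed among called differences. For C1 against NC1, the 1 member gene called (Dusp1) became 0 with probes above background in any 1 stage, with no filter, with the methods' plain test, with only the 2 stages compared, and with the replicate number as a block, and 0 to 1 with 1 array left out. The count of pathway list genes called there, 0, became 1 with 75th percentile scaling, array quality weights, limma's trend and robust options, only the 2 stages compared, the replicate block, or the mean of all probes of a gene, 2 with normexp, 4 at a threshold of 0.05, and 0 to 2 with 1 array left out. The genes concerned at 0.01 were Hmga2, Epha4, Dusp3 or Egfr. With a minimum change of 2-fold the list counts were 18 instead of 31 for C2 against C1 and 18 instead of 29 for C2 against NC1. No such count was made over all valid probes. The cause was not tested.

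The replicate numbers were not taken to pair the samples, because not every pair had deviations that correlated above 0.1. The correlations ran from 0.056 to 0.348 between C1 and NC1, where all 5 were positive and 3 were above 0.1, from -0.17 to 0.213 between C2 and C1 and from -0.241 to 0.002 between C2 and NC1, and 5 of 15 arrays correlated best with their own number. With the replicate block, calls over all valid probes went from 437 to 404 for C1 against NC1, from 8253 to 8059 for C2 against C1 and from 8916 to 8767 for C2 against NC1. The scan day as a block was not run, since all arrays were scanned on 1 day. Signal over background limits what can be said of Dusp5, Spry2 and Spry4.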

Other observations

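Immediate early genes, which respond to many stimuli including the handling of cells, did not move as 1 group. Of 11 listed, 10 had a valid probe. Between NC1 and C1, Atf3 alone was called, where 1.75% of all valid probes were called higher and 0.768% lower. Atf3 was higher at C1 by 1.83 on the log2 scale (adjusted p = 0.00646 in limma). That call was lost under 9 of 33 alternatives, among them leaving out NC1 replicate 1, 2, 3 or 5 or C1 replicate 1 or 3 (adjusted p up to 0.0292). Between C1 and C2, Egr2 rose by 3.79 (SE 0.42) and Btg2 by 1.15 (SE 0.24). Atf3 fell by 1.85, Fosb by 1.69, Fos by 1.61 and Jun by 0.78. The call for Fosb was lost under 9 of 33 alternatives, among them leaving out any of C1 replicates 1 to 3 or C2 replicates 3 to 5, and that for Jun under 14, among them leaving out any of C1 replicates 1 to 3 or C2 replicates 1 to 4. Egr1, a classical target of ERK, differed by 0.10 (SE 0.23, adjusted p = 0.724), and Ier2 and Nr4a1 did not pass the test either. Junb differed by 0.50 (adjusted p = 0.113), but passed with scaling on the median of all gene probes (0.80, adjusted p = 0.00793) and in the table of the authors, and it was called higher at C2 than at NC1 (1.06, adjusted p = 0.00199).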
